A study of Mus musculus with 12 samples.

Results

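The genes described here are 8 genes of the follicular helper T (Tfh) programme and of the BCL6 and BLIMP-1 axis: Bcl6, Prdm1, Zbtb32, Sh2d1a, Slamf6, Icos, Tox and Tox2. They were taken as a given list of symbols, matched to the Ensembl identifiers of the expression tables, and make up 8 of the 29522 genes measured. RNA was sequenced from mouse T helper 17 (Th17) cells, which had been grown from naive CD4+ T cells of wild-type C57BL/6J spleen in RPMI medium with the CytoBox Th17 supplement after activation through CD3 and CD28. The 4 groups were vehicle, ILA at 200 uM, GSK805 at 0.5 uM and GSK805+ILA (the same 2 concentrations together), each with 3 libraries called biological replicates. All groups therefore shared the activation and the Th17 medium, and no untreated or Tfh-polarised cells were analysed here. The labels name no animals or cultures and give neither the duration of the treatment nor the age of the mice, and p-values here rest on library-to-library variation, which may be technical. ILA is taken to be indole-3-lactic acid, which bacteria form from tryptophan, while GSK805 is known as a compound that blocks Th17 differentiation.

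Tfh cells help B cells in germinal centres. BCL6, a BTB zinc finger repressor, is required for their formation, and BLIMP-1, encoded by Prdm1, is its antagonist: each represses the other, and BLIMP-1 marks effector T cells and plasma cells. Zbtb32 encodes another BTB zinc finger protein (PLZP, also called ROG) that restrains cytokine expression and proliferation of activated T cells. Sh2d1a encodes SAP, the adaptor that binds the tails of SLAM family receptors such as Ly108, the product of Slamf6, and that T cells need for stable contact with B cells. ICOS is a CD28-like costimulatory receptor that sustains Tfh cells through PI3-kinase, and TOX and TOX2 are HMG-box proteins of which TOX2 promotes Tfh differentiation.

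Values are FPKM, which are read counts scaled by gene length and library size. Whole reads could be recovered from them at 17.85 M to 23.5 M per library, and 1 read in a gene of 1 kb was worth 0.0426 to 0.056 FPKM. The length that gave whole reads was that of all annotated exons of a gene together. Levels of different genes are therefore compared as FPKM, not as numbers of transcripts. T cell markers (Cd3d, Cd3e, Cd3g, Cd4, Cd5, Cd28 and Lck) were present in every library and summed to between 328 and 668 FPKM. The Th17 markers Il17a, Il17f, Il23r and Ccr6 summed to 1210 to 1500 FPKM with vehicle, 427 to 470 with ILA, 347 to 400 with GSK805 and 168 to 194 with GSK805+ILA. Of 7 measured B cell markers 6 stayed under 1 FPKM in every library, as did all 4 NK cell markers and 7 of 8 myeloid markers. Of the markers used to define Tfh cells, Cxcr5 lay between 0.0286 and 0.322 FPKM and Ascl2 between 0 and 0.0556 FPKM over all libraries. The receptor that places Tfh cells in follicles was thus near 0. Il17a lay between 36.4 and 832 FPKM and Il17f between 131 and 656 FPKM, so transcripts of these Th17 cytokines were present in every group. Il23r and Ccr6 read 7.15 to 9.67 and 4.61 to 5.02 FPKM with vehicle. With GSK805+ILA they read 0.179 to 0.359 and 0.116 to 0.294 FPKM, near the level of Cxcr5. Other receptors found on Tfh cells, which activated T cells also carry, were present in every library: Pdcd1 (PD-1) at 5.54 to 8.62 FPKM, Btla at 21.4 to 30.8 FPKM and Cd200 at 17.4 to 44.5 FPKM. Fewer cells of a type and less RNA per cell cannot be told apart in such bulk samples.

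The sequence just before a RefSeq start of Bcl6, Prdm1 and Zbtb32 is shown first, because these are the 3 members that encode repressors of transcription. RefSeq (GRCm38.p6) gave starts for 5 of the 8 genes, namely Bcl6, Prdm1, Zbtb32, Slamf6 and Tox2. The 250 bases before a start were searched on both strands for GCGTG, the core bound by the aryl hydrocarbon receptor (AhR), a sensor of indoles. Capitals mark GCGTG read on the opposite strand, which appears as CACGC.
Bcl6, chr16:23988853-23989102, minus strand: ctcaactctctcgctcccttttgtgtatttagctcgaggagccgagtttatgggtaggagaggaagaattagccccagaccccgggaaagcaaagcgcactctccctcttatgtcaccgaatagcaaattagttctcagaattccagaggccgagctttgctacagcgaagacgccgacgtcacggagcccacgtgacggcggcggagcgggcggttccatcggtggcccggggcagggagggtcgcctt
Prdm1, chr10:44458749-44458998, minus strand: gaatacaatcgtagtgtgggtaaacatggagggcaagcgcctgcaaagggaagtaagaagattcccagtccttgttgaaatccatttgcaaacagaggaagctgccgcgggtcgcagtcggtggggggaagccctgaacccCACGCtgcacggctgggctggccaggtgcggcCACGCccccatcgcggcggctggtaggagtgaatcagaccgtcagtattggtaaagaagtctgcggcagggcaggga
Zbtb32, chr7:30598910-30599159, minus strand: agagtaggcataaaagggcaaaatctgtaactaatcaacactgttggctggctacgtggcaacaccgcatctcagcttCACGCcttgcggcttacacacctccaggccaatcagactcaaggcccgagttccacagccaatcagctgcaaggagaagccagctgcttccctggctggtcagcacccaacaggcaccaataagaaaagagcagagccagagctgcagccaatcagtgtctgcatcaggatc

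GCGTG was present 2 times before the Prdm1 start, beginning 109 and 77 bases upstream, and 1 time before the Zbtb32 start, 172 bases upstream. This Prdm1 start lies inside the annotated gene, downstream of its 5′ end, so the window is not the sequence before the whole gene. It was absent from the Bcl6 and Slamf6 windows, and 1 of the 5 Tox2 windows held it, 102 bases upstream on the gene's own strand. Over all 32851 RefSeq windows of 250 bases, 28.2% held GCGTG on either strand, so a match is common and describes the letters only. The second windows of Bcl6 and of Zbtb32, at starts inside the genes, did not hold it.

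ILA raised Bcl6, Tox2, Slamf6 and Sh2d1a and lowered Zbtb32, both against vehicle and on top of GSK805, while Icos did not pass the test in either comparison. The rise of Bcl6 on top of GSK805 was small and passed in only 10 of 16 settings. GSK805 alone lowered Tox2 and called no other of the 8 genes. The genes were tested with limma on log2(FPKM + 1) over all 13511 genes that reached a mean of 1 FPKM in a group, and a gene was called at an adjusted p under 0.05. Prdm1 and Tox did not reach that level and were tested in a fit without the filter. A fold below is the ratio of mean FPKM, and a log2 change is on the log2(FPKM + 1) scale, on which low genes show smaller changes than their ratio.

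**Figure D1:**
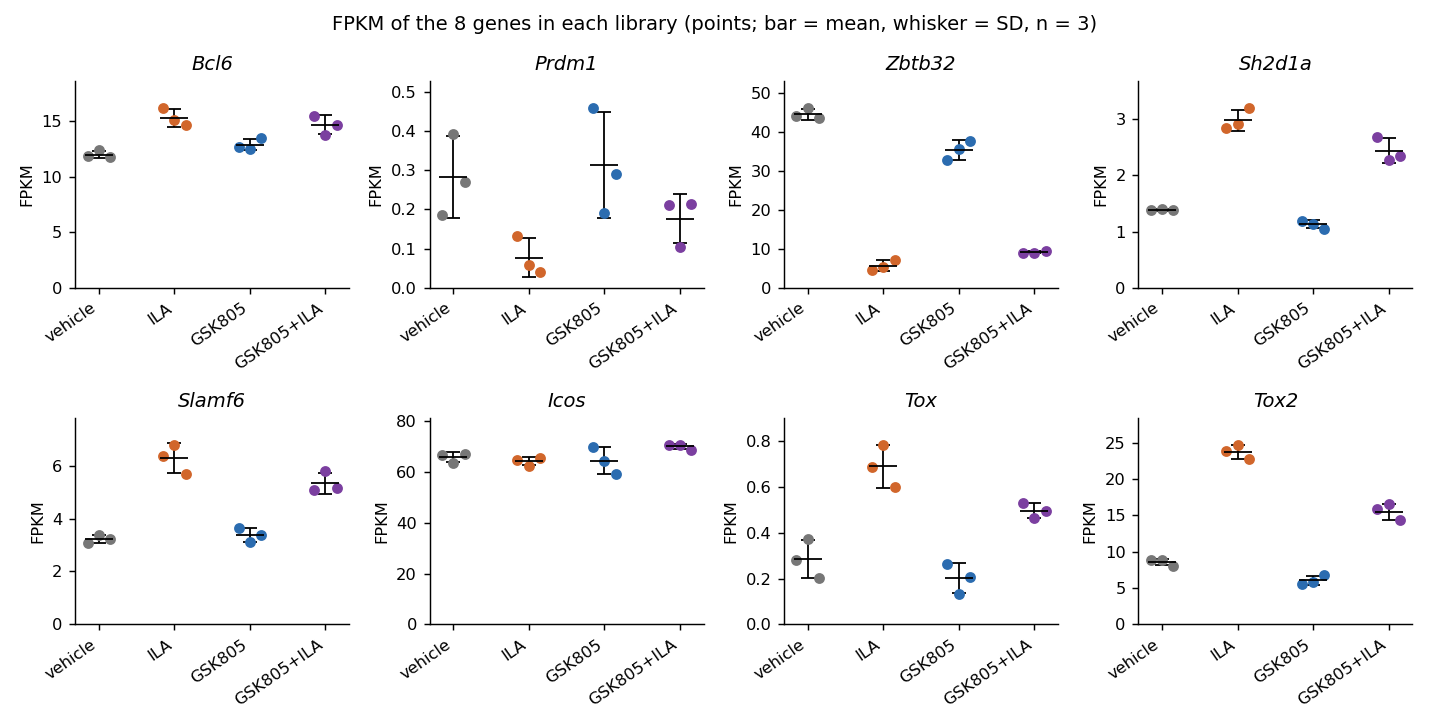
FPKM of the 8 genes in each of the 12 libraries, 1 panel per gene with its own axis from 0; points are libraries, the bar is the mean and the whisker the SD of 3 libraries. Zbtb32 falls from 43.5 to 46.2 FPKM with vehicle to 4.51 to 7.18 FPKM with ILA, Tox2 rises from 8.04 to 8.87 to 22.7 to 24.7 FPKM, and Icos stays between 59.0 and 70.7 FPKM.

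Bcl6 (ENSMUSG00000022508), the repressor that defines Tfh cells, lies on chromosome 16 from 23965052 to 23988852 on the minus strand (GRCm38). Its 3 vehicle libraries read 11.9, 12.4 and 11.8 FPKM and its 3 ILA libraries 16.2, 15.1 and 14.7 FPKM. With GSK805 it read 12.7, 12.5 and 13.5 FPKM, and with GSK805+ILA 15.5, 13.8 and 14.7 FPKM. All 6 libraries with ILA lay above all 6 without it. The rise with ILA was modest, 1.27-fold (log2 change 0.33, SE 0.053, limma adjusted p = 2.75e-04). On top of GSK805 it was 1.14-fold (log2 change 0.17, SE 0.053, limma adjusted p = 0.0235), a call that was lost without a filter, without GSK805 replicate 1 or 2, and without GSK805+ILA replicate 1 or 3 (log2 change 0.13 to 0.17, limma adjusted p = 0.0544 to 0.0917). When each library was centred on its median, the rise with ILA alone shrank to 0.19 on the log2 scale (limma adjusted p = 0.00957), and those of GSK805+ILA against GSK805 and against vehicle did not pass (0.11 with adjusted p = 0.116, and 0.13 with adjusted p = 0.0642). GSK805 alone left Bcl6 uncalled, with a log2 change of 0.09 and a 95% interval from -0.02 to 0.21. The 114-base gene Gm37419 lies on the opposite strand inside Bcl6 and shares 21 exonic bases with it; it held 54 to 87 reads per library against 1631 to 2346 for Bcl6.

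Prdm1 (ENSMUSG00000038151), which encodes BLIMP-1, lies on chromosome 10 from 44437177 to 44528501 on the minus strand and was close to the limit of detection. With vehicle it read 0.186, 0.393 and 0.269 FPKM, from 23, 45 and 31 reads. With ILA it read 0.133, 0.0572 and 0.0402 FPKM, from 16, 6 and 4 reads. With GSK805 the values were 0.459, 0.19 and 0.29 FPKM, and with GSK805+ILA 0.212, 0.104 and 0.214 FPKM. The ILA libraries lay below all vehicle and GSK805 libraries, while the GSK805+ILA libraries overlapped every other group. The mean with ILA was 3.69-fold lower than with vehicle, but the log2 change of -0.25 (SE 0.094) did not pass (limma without the filter, adjusted p = 0.0822). With a pseudocount of 0.1 in place of 1 the log2 change was -1.12 (limma adjusted p = 0.041), and limma's voom on the recovered reads gave -1.86 (SE 0.58, adjusted p = 0.00627). An exact permutation test of 3 against 3 libraries gave p = 0.1, two-sided, the smallest it can give. On top of GSK805, voom gave a log2 change of -0.82 with a 95% interval from -1.69 to 0.04 (adjusted p = 0.131), so at this depth a change of Prdm1 in the presence of GSK805 was not detectable.

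Zbtb32 (ENSMUSG00000006310), on chromosome 7 from 30589681 to 30598909 on the minus strand, changed more than any other of the 8 genes in the comparison of ILA with vehicle. It stood at 44.2, 46.2 and 43.5 FPKM with vehicle and at 4.51, 5.35 and 7.18 FPKM with ILA. With GSK805 it stood at 32.9, 35.6 and 37.8 FPKM, and with GSK805+ILA at 9.02, 9.0 and 9.34 FPKM. No library of a group overlapped one of another group, and the order was vehicle, GSK805, GSK805+ILA and ILA from high to low. ILA lowered it 7.85-fold (log2 change -2.79, SE 0.11, limma adjusted p = 7.69e-09), and GSK805+ILA lowered it 3.89-fold against GSK805 (log2 change -1.85, limma adjusted p = 5.53e-07). The difference between those log2 changes was 0.94 (SE 0.16, limma interaction term, adjusted p = 0.00454), so the fall with ILA was smaller in the presence of GSK805. Accordingly Zbtb32 was 1.61-fold higher with GSK805+ILA than with ILA (log2 change 0.62, limma adjusted p = 0.00382). The lower level with GSK805 alone, 1.26-fold, lay at the threshold: the log2 change of -0.33 (95% interval -0.57 to -0.08) had a limma adjusted p of 0.0592, and it passed in 5 of 16 settings (adjusted p = 4.51e-05 to 0.179).

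Bcl6 and Zbtb32 encode repressors of the same family, and their ratio within a library does not depend on the scaling of that library. The ratio of Bcl6 to Zbtb32 FPKM was 0.268 to 0.271 with vehicle, 0.351 to 0.385 with GSK805, 1.53 to 1.72 with GSK805+ILA and 2.05 to 3.59 with ILA. Bcl6 thus had the lower FPKM of the pair in all 6 libraries without ILA and the higher FPKM in all 6 with it. The ratio of Tox2 to Bcl6 was 0.439 to 0.501 with GSK805, 0.681 to 0.741 with vehicle, 0.976 to 1.2 with GSK805+ILA and 1.47 to 1.63 with ILA. In all 10 comparisons (5 for each ratio) the groups did not overlap. Exact two-sided permutation tests gave p = 0.1 in each, the smallest that 3 against 3 libraries allow (0.1 after Benjamini-Hochberg adjustment over the 10). How often other gene pairs separate the groups was not computed, and 57.9% of all genes tested were called with ILA against vehicle. Both pairs come from members chosen with earlier results of these data known, so the count describes these ratios only.

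**Figure D2:**
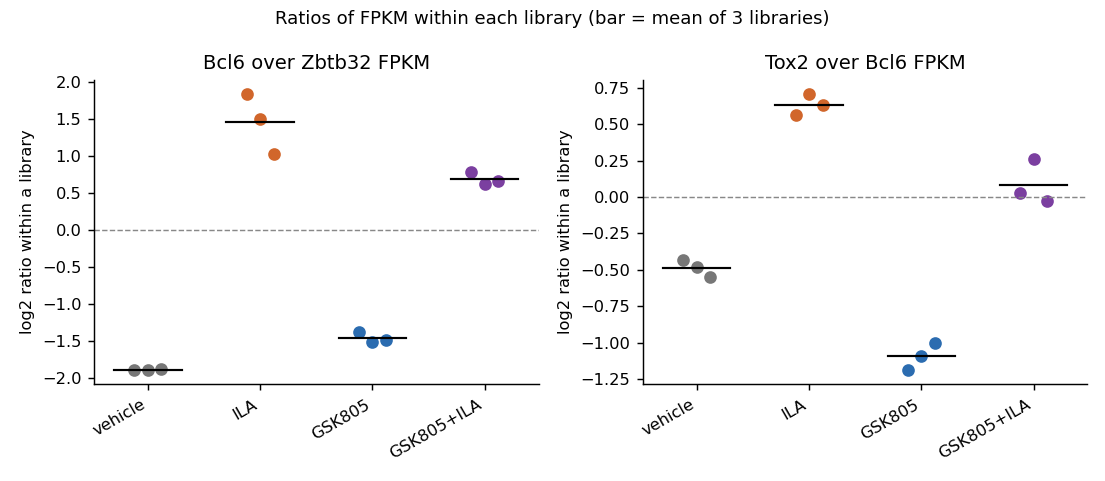
log2 ratio of FPKM within each library, for Bcl6 over Zbtb32 (left) and Tox2 over Bcl6 (right), by group. Points are libraries, bars are means of 3 and the dashed line marks equal FPKM. The left panel changes sign between groups without and with ILA (means -1.89 and -1.46 against 1.46 and 0.68).

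Tox2 (ENSMUSG00000074607), on chromosome 2 from 163203125 to 163324170 on the plus strand, was the member called in all 5 pairwise comparisons. It read 8.82, 8.87 and 8.04 FPKM with vehicle and 23.8, 24.7 and 22.7 FPKM with ILA. It read 5.56, 5.88 and 6.75 FPKM with GSK805 and 15.8, 16.5 and 14.4 FPKM with GSK805+ILA. The 4 groups did not overlap, with ILA highest and GSK805 lowest. ILA raised Tox2 2.77-fold against vehicle (log2 change 1.37, SE 0.071, limma adjusted p = 3.72e-08) and 2.56-fold on top of GSK805 (log2 change 1.23, SE 0.071, limma adjusted p = 3.57e-07). GSK805 lowered it 1.42-fold against vehicle (log2 change -0.44, limma adjusted p = 0.00136) and 1.53-fold in the presence of ILA (log2 change -0.58, limma adjusted p = 3.64e-04). The interaction term was -0.14 with a 95% interval from -0.36 to 0.08 and did not pass (limma adjusted p = 0.389).

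Tox (ENSMUSG00000041272), on chromosome 4 from 6686353 to 6991557 on the minus strand, was measured at a far lower level. It read 0.279, 0.372 and 0.204 FPKM with vehicle, 0.687, 0.783 and 0.597 with ILA, 0.264, 0.133 and 0.206 with GSK805, and 0.529, 0.462 and 0.492 with GSK805+ILA. These values came from 22 to 113 reads per library, and the 6 libraries with ILA lay above the 6 without it. The mean with ILA was 2.42-fold that with vehicle (log2 change 0.4, SE 0.082, limma without the filter, adjusted p = 0.00434). On top of GSK805 it was 2.46-fold higher (log2 change 0.32, limma adjusted p = 0.0252), a call that was lost when only those groups were fitted and without any 1 of GSK805 replicates 2 and 3 and the 3 GSK805+ILA replicates (limma adjusted p = 0.0566 to 0.0957); voom on recovered reads gave a log2 change of 1.32 (adjusted p = 5.00e-04). The antisense gene Gm11802 shares 260 exonic bases with Tox and held 1 to 20 reads, and how strands were counted is unknown here. Of the other TOX family genes, Tox3 was below 1 FPKM in every group, and Tox4 was lower with ILA, at 22.4 ± 0.757 against 27.5 ± 0.27 FPKM (SD, n = 3; log2 change -0.29, limma adjusted p = 3.30e-05).

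Sh2d1a (ENSMUSG00000005696), the SAP adaptor gene, lies on chromosome X from 42502453 to 42529330 on the plus strand. It read 1.38, 1.41 and 1.39 FPKM with vehicle, 2.84, 2.92 and 3.2 with ILA, 1.19, 1.14 and 1.05 with GSK805, and 2.69, 2.27 and 2.34 with GSK805+ILA. Each group stood apart from the others, and both groups with ILA were higher than both without it. The rise was 2.14-fold with ILA against vehicle (log2 change 0.74, SE 0.076, limma adjusted p = 8.18e-06) and 2.16-fold on top of GSK805 (log2 change 0.69, limma adjusted p = 3.50e-05). GSK805 did not pass on its own (log2 change -0.17, 95% interval -0.34 to 0, limma adjusted p = 0.141) or in the presence of ILA (-0.21, interval -0.38 to -0.05, adjusted p = 0.0745). Tenm1, which overlaps Sh2d1a on the opposite strand, had at most 1 read.

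Slamf6 (ENSMUSG00000015314), which encodes Ly108, lies on chromosome 1 from 171917515 to 171953170 on the plus strand. It read 3.06, 3.39 and 3.24 FPKM with vehicle, 6.38, 6.79 and 5.69 with ILA, 3.65, 3.11 and 3.38 with GSK805, and 5.06, 5.79 and 5.14 with GSK805+ILA. The vehicle and GSK805 libraries overlapped, as did the ILA and GSK805+ILA libraries, and the former were all below the latter. The rise was 1.95-fold with ILA (log2 change 0.78, SE 0.077, limma adjusted p = 5.45e-06) and 1.58-fold on top of GSK805 (log2 change 0.53, SE 0.077, limma adjusted p = 2.49e-04). With GSK805 alone the log2 change was 0.05 with a 95% interval from -0.12 to 0.22. Gm37065 lies antisense to Slamf6 without sharing exonic bases.

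Icos (ENSMUSG00000026009), on chromosome 1 from 60977927 to 61000320 on the plus strand, had the highest FPKM of the 8 genes in every group. It read 66.8, 63.6 and 67.1 FPKM with vehicle, 64.6, 62.5 and 65.4 with ILA, 69.8, 64.3 and 59.0 with GSK805, and 70.6, 70.7 and 68.8 with GSK805+ILA. It was called in none of the 5 pairwise comparisons. The log2 change was -0.04 with ILA (95% interval -0.15 to 0.08, limma adjusted p = 0.582) and 0.12 with GSK805+ILA against GSK805 (0.01 to 0.24, adjusted p = 0.0825). After median centring the change with ILA was -0.17 and passed (limma adjusted p = 0.0136), and without GSK805 replicate 1, the highest of its group, the difference of GSK805+ILA from GSK805 was 0.18 and passed (limma adjusted p = 0.0096). Icos also passed in GSK805+ILA against GSK805 with voom on the recovered reads (log2 change 0.12, adjusted p = 0.0354) and against ILA when only those groups were fitted (0.12, limma adjusted p = 0.0493).

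The order of the levels in FPKM differed between groups. With vehicle it ran Icos, Zbtb32, Bcl6, Tox2, Slamf6, Sh2d1a, Tox and Prdm1, and Tox and Prdm1 did not differ beyond their spread. With ILA it ran Icos, Tox2, Bcl6, Slamf6, Zbtb32, Sh2d1a, Tox and Prdm1, where the libraries of Slamf6 and Zbtb32 overlapped. With GSK805 the first 6 places were as with vehicle, and Prdm1 and Tox overlapped. With GSK805+ILA, Tox2 (14.4 to 16.5 FPKM) and Bcl6 (13.8 to 15.5 FPKM) overlapped in the second place, ahead of Zbtb32.

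Of the 6 genes tested over all genes, 4 rose and 1 fell with ILA, where 57.9% of the 13511 genes tested were called, 33.9% higher and 24.0% lower. With GSK805+ILA against vehicle 4 rose and 1 fell as well (52.1% of all genes called, 31.8% higher and 20.3% lower), and this comparison shares its vehicle libraries with the other comparisons with vehicle. There Zbtb32 was 4.89-fold lower (log2 change -2.17, limma adjusted p = 5.64e-08), Tox2 1.81-fold higher (0.79, 3.74e-06), Sh2d1a 1.75-fold higher (0.52, 1.56e-04), Slamf6 1.65-fold higher (0.58, 7.33e-05) and Bcl6 1.22-fold higher (0.26, 0.00145). Icos did not pass there (log2 change 0.09, limma adjusted p = 0.178). In the fit without the filter, neither Tox (0.22, adjusted p = 0.0885) nor Prdm1 (-0.12, adjusted p = 0.43) was called there, and voom called Tox (0.82, adjusted p = 0.0114). For GSK805+ILA against GSK805, which shares no library with ILA against vehicle, 4 rose and 1 fell (39.5% of all genes, 22.0% higher and 17.5% lower). With GSK805 alone 1 of 6, Tox2, was called, and it fell (22.8% of all genes, 15.7% higher and 7.08% lower). For GSK805+ILA against ILA, Zbtb32 was higher and Tox2 lower (18.6% of all genes, 9.92% higher and 8.64% lower), and the interaction term called Zbtb32 only (13.8% of all genes, 5.15% higher and 8.7% lower). The median log2 change of the 6 genes with ILA was 0.53, beside 0.06 over all genes tested, and with GSK805 it was -0.1 beside 0.05. The members were chosen with earlier results of these data known, so these counts and medians describe the 6 genes only.

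**Figure D3:**
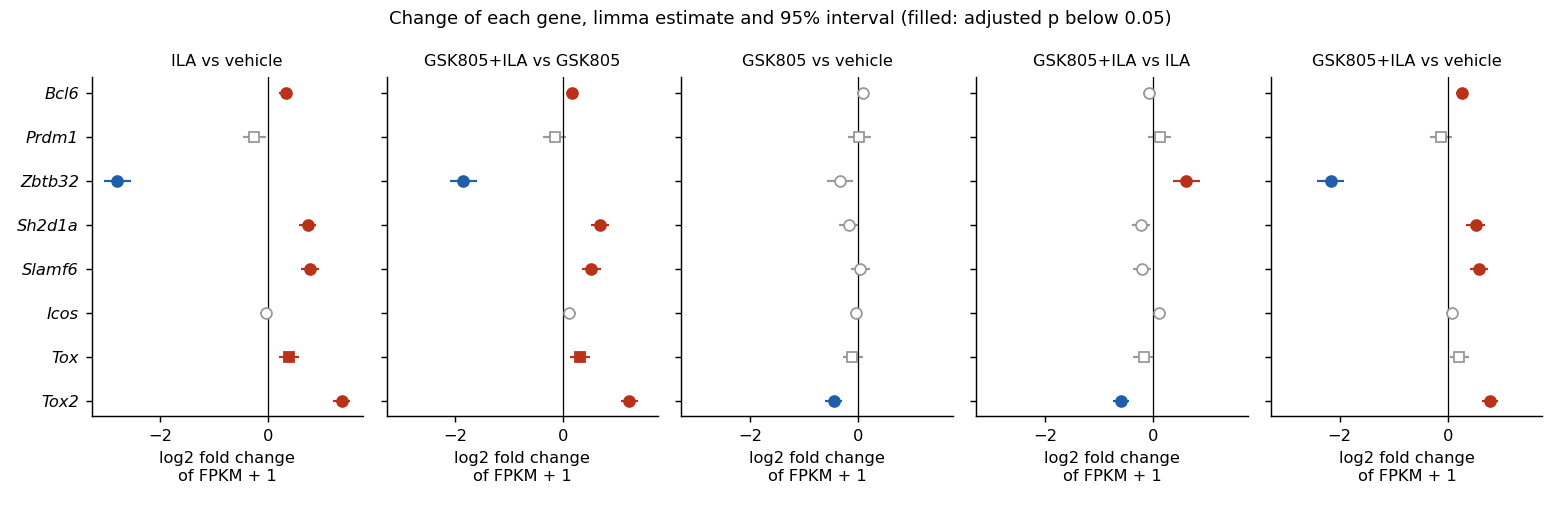
log2 change of FPKM + 1 for the 8 genes in the 5 pairwise comparisons, as limma estimates with 95% intervals; filled red and blue symbols are called higher and lower at an adjusted p under 0.05, and squares are the genes taken from the fit without the filter. Zbtb32 is at -2.79 with ILA and at -1.85 with GSK805+ILA against GSK805, and Tox2 is to the right in both (1.37 and 1.23).

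The share of called genes that were higher depended on scaling. It was 58.6% with ILA as deposited and 40.9% after median centring (46.3% with quantile normalization), 68.9% and 40.3% (55.9%) with GSK805, 61.1% and 40.2% (47.8%) with GSK805+ILA against vehicle, and 55.7% and 41.6% against GSK805. For the interaction it was 37.2% and 63.2%. Median centring moved the median log2 change of all genes by -0.135 with ILA and by -0.137 with GSK805+ILA against vehicle. Against that shift the rises of Tox2, Slamf6, Sh2d1a and Bcl6 and the fall of Zbtb32 with ILA were kept, at log2 changes of 1.23, 0.65, 0.6, 0.19 and -2.93.

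Other genes in and around the Tfh programme were called in both directions. The lists below hold genes that favour Tfh cells and genes that restrain them or are lowered in them. Their pooled counts therefore cannot show a direction of the programme. Of 65 tested genes in the 9 lists below, 30 rose and 23 fell with ILA (29 and 27 after median centring), 21 rose and 11 fell with GSK805 (14 and 16) and 33 rose and 20 fell with GSK805+ILA (28 and 24). Over all genes tested, 57.9%, 22.8% and 52.1% were called in these 3 comparisons, with median log2 changes of 0.064, 0.054 and 0.065, and the counts and medians of each list are to be read against those. No called change of the 25 genes named from these lists turned its sign under median centring or quantile normalization. The calls of Maf and Ncor1 with GSK805, of Ctla4 with GSK805+ILA against vehicle and of Ncor1 and Pik3r1 with GSK805+ILA against GSK805 were lost under 1 or both of these scalings. Of 10 tested surface receptors and cytokines of Tfh cells, 3 rose and 6 fell with ILA (median log2 change -0.31), 2 rose and 3 fell with GSK805 and 4 rose and 6 fell with GSK805+ILA. Il21, the cytokine by which Tfh cells drive germinal centre B cells and which Th17 cells also make, went from 66.0 to 75.3 FPKM with vehicle to 18.7 to 20.6 with ILA, 31.8 to 34.2 with GSK805 and 13.1 to 16.9 with GSK805+ILA. Cd40lg, the ligand that delivers help to B cells, was 3.05-fold lower with ILA (log2 change -1.54, limma adjusted p = 8.35e-07) and 1.45-fold lower with GSK805 (-0.53, adjusted p = 0.00912). Il6ra, a receptor chain for the interleukin-6 signal that induces both Tfh and Th17 cells, rose 2.31-fold with ILA (1.01, 3.43e-07) and 1.56-fold with GSK805 (0.51, 5.60e-04). Cxcr5 and Il4 stayed under 1 FPKM in every group.

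The list set up as factors that favour Tfh cells was called in both directions. It also holds Id3 and Bach2, which cannot be taken as favouring Tfh cells. Its counts and median therefore describe the list, not a class of factors with 1 role. Of 10 tested, 5 rose and 3 fell with ILA (median 0.15), 5 rose with GSK805 and 6 rose and 3 fell with GSK805+ILA. Lef1, which with TCF-1 acts upstream of BCL6, stood at 3.94 to 4.94 FPKM with vehicle, 14.3 to 15.3 with ILA, 6.28 to 7.14 with GSK805 and 13.1 to 14.0 with GSK805+ILA. Id3, an inhibitor of E proteins, rose 2.55-fold with ILA (log2 change 1.3, limma adjusted p = 5.33e-07) and 1.35-fold with GSK805 (0.41, 0.0107). Maf, whose product promotes IL-21 and Tfh differentiation, read 34.1 to 37.8 FPKM with ILA and 9.66 to 10.9 with vehicle, and it was lower with GSK805+ILA than with ILA (25.1 to 27.8 FPKM; log2 change -0.45, limma adjusted p = 0.00229).

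Genes that restrain Tfh cells were also split, 4 of 10 rising and 5 falling with ILA (median -0.1), 4 rising and 2 falling with GSK805, and 4 rising and 3 falling with GSK805+ILA. Il2rb, a chain of the interleukin-2 receptor whose signal through STAT5 favours BLIMP-1 over BCL6, fell from 118 to 126 FPKM with vehicle to 59.4 to 64.3 with ILA, 82.4 to 87.6 with GSK805 and 45.8 to 49.4 with GSK805+ILA. Runx3 rose 2.86-fold with ILA (log2 change 1.38, limma adjusted p = 5.95e-08), and with GSK805 its log2 change was -0.05 (adjusted p = 0.714). Klf2, which keeps homing receptors expressed, rose with each compound and was highest with both, at 10.8 to 12.3 FPKM against 2.81 to 3.96 with vehicle (log2 change 1.51, limma adjusted p = 1.64e-06).

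Of 5 homing receptors that are lowered in Tfh cells, 3 rose and 1 fell with ILA, 3 rose and 1 fell with GSK805 and 2 rose with GSK805+ILA. S1pr1, the exit receptor of lymph nodes, rose 2.56-fold with ILA (log2 change 1.18, limma adjusted p = 7.18e-05) and 1.73-fold with GSK805 (0.64, 0.0144), and Selplg, the P-selectin ligand, rose 2.33-fold with ILA (1.18, 5.18e-08). Gpr183, the oxysterol receptor EBI2, went from 2.45 to 3.04 FPKM with vehicle to 5.91 to 6.62 with ILA and to 0.907 to 1.2 with GSK805, and at 2.12 to 2.7 FPKM with both compounds it was not called against vehicle (limma adjusted p = 0.31).

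The partners of SAP and Ly108 moved unevenly. Of 7 tested SLAM receptors and SAP partners, 3 rose and 3 fell with ILA (median 0.14), 3 rose and 2 fell with GSK805, and 4 rose and 2 fell with GSK805+ILA. Slamf7, a SLAM receptor of effector cells, was at 9.13 to 9.52 FPKM with vehicle, 0.95 to 1.6 with ILA, 5.39 to 7.07 with GSK805 and 2.08 to 2.75 with GSK805+ILA. Slamf1, the founding member of the family, fell 2.7-fold with ILA (log2 change -1.28, limma adjusted p = 1.46e-08) and 1.21-fold with GSK805 (-0.26, 0.00912). Cd48, a ligand within the family, rose 2.43-fold with ILA (1.21, 1.40e-08) and 1.23-fold with GSK805 (0.28, 0.00458). Cd84, another SLAM receptor, rose with ILA (0.345, limma adjusted p = 0.00131), and Ly9 was not called (0.141, adjusted p = 0.0656). So Slamf6 and Sh2d1a rose with ILA, as did Cd48 and Cd84, where Slamf1 and Slamf7 fell.

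Around ICOS, 4 of 7 genes of the CD28 family and of ICOS control rose and 1 fell with ILA (median 0.37), 1 rose and 1 fell with GSK805, and 4 rose and 2 fell with GSK805+ILA. Ctla4, an inhibitory receptor of the CD28 family, read 83.4 to 99.1 FPKM with vehicle, 181 to 192 with ILA, 43.4 to 54.9 with GSK805 and 103 to 122 with GSK805+ILA. Pik3cd, a catalytic subunit of PI3-kinase, rose with ILA (1.51-fold, log2 change 0.58, limma adjusted p = 1.49e-06) and with GSK805 (1.48-fold, 0.55, 3.73e-05). It was not called for ILA on top of GSK805 (0.09, 0.163). Pik3r1, the regulatory subunit, rose 1.57-fold with ILA (0.56, 4.39e-05).

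Among 7 BCL6 corepressor genes, 3 rose and 1 fell with ILA (median 0.07), 2 rose with GSK805 and 4 rose and 1 fell with GSK805+ILA. With ILA that share and median are near those over all genes (57.9% called, median 0.064). Bcor rose from 4.85 to 5.22 FPKM with vehicle to 7.81 to 9.85 with ILA (log2 change 0.68, limma adjusted p = 2.08e-05), and Ncor1 from 21.4 to 25.0 to 31.4 to 31.8 FPKM (0.46, 1.53e-05). Tbl1x, a subunit of the NCOR complexes, fell from 25.9 to 29.1 to 17.9 to 19.7 FPKM (-0.53, 1.35e-05). Of 8 other BTB zinc finger factors, 5 rose and 2 fell with ILA (median 0.6), 1 rose and 2 fell with GSK805, and 5 rose and 2 fell with GSK805+ILA. Hic1, a repressor of this family, rose 5.86-fold with ILA and 4.76-fold on top of GSK805 (log2 changes 2.36 and 2.04, limma adjusted p = 2.50e-07 and 2.73e-06), and Zbtb38 and Zbtb20 rose 3.2-fold and 2.87-fold with ILA (1.05 and 0.86, limma adjusted p = 7.80e-06 and 2.57e-05).

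**Figure D4:**
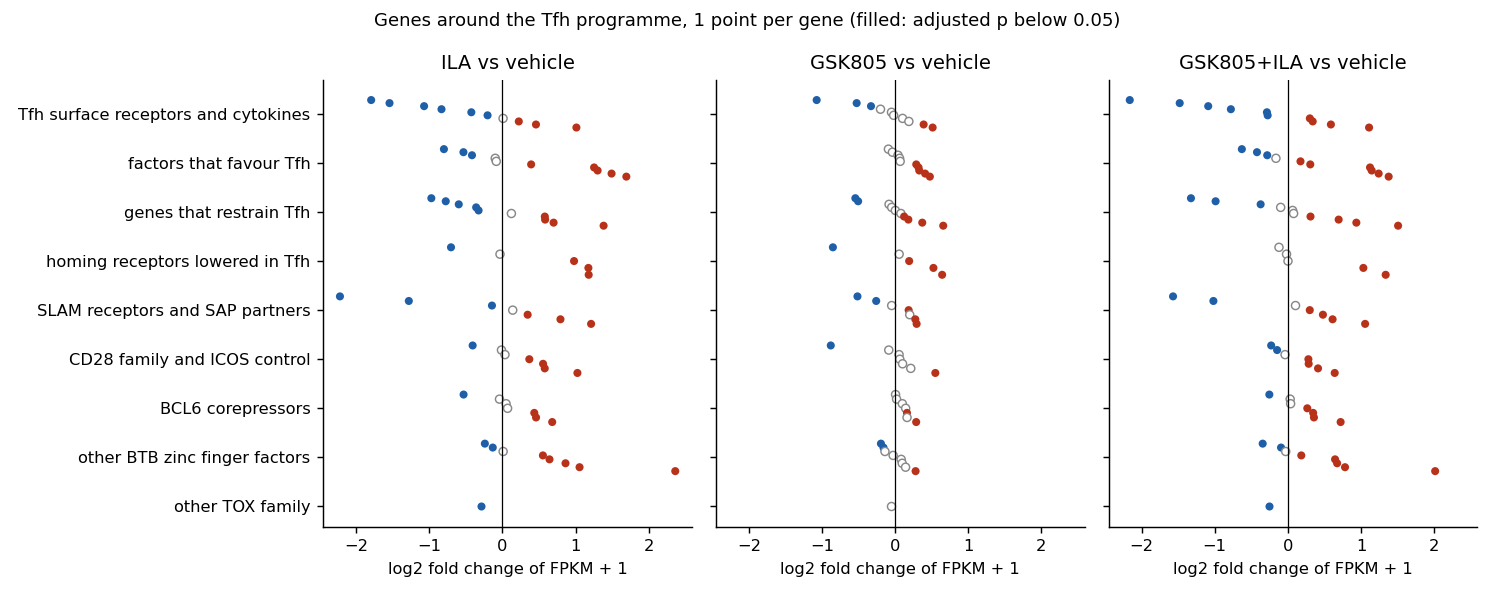
log2 change of FPKM + 1 against vehicle for the tested genes of 9 lists around the Tfh programme, 1 point per gene, in 3 panels for ILA, GSK805 and GSK805+ILA; filled red and blue points are called higher and lower at a limma adjusted p under 0.05. Every list except the single tested gene of the TOX family has filled points on both sides with ILA, from Slamf7 at -2.22 to Hic1 at 2.36.

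Over the 12 libraries, and among 7295 genes with at least 5 FPKM in a group, the profile of Zbtb32 was most like those of Hdlbp, Herpud1 and Psat1 (Pearson r of log2(FPKM + 1) 0.996, 0.995 and 0.995). Tox2 was most like Eef2, Smpdl3a and Zfp219 (0.992, 0.988 and 0.986), Sh2d1a like Nab1, Asb2 and Aup1 (0.989, 0.988 and 0.988), and Slamf6 like Plekho1, Cd247 and Btg2 (0.989, 0.989 and 0.988). Bcl6 was most like Adarb1, Arpc4 and Hps5 (0.965, 0.964 and 0.964). The likeness was lower for Icos, with Dph7, Ppfia1 and Ap3m1 at 0.809, 0.747 and 0.74. The points share 4 groups and their libraries, so these values describe the same group differences. Asb2, for instance, averaged 4.15, 58.1, 2.34 and 27.4 FPKM in the vehicle, ILA, GSK805 and GSK805+ILA groups.

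Markers of the cells themselves moved with these results. All 7 T cell markers rose with ILA. Their sum went from 328 to 342 FPKM with vehicle to 643 to 668 with ILA, beside 359 to 375 with GSK805 and 580 to 610 with GSK805+ILA. Slamf6, Sh2d1a and Tox2 were also higher in both groups with ILA than in both without it. With GSK805 alone, Cd3e and Cd5 were called higher (log2 changes 0.37 and 0.29, limma adjusted p = 2.24e-04 and 2.82e-04). The other T cell markers were not called there. Tox2 was lower with GSK805 alone (log2 change -0.44, limma adjusted p = 0.00136), and Slamf6 was not called (0.05, adjusted p = 0.698). Sh2d1a read 1.05 to 1.19 FPKM there, against 1.38 to 1.41 with vehicle, and was not called. Cd4 had log2 changes of 1.44 with ILA, -0.09 with GSK805 and 1.03 with both. Of the 4 measured plasma cell markers, which summed to 16.5 to 21.5 FPKM with vehicle, 11.9 to 14.3 with ILA, 16.9 to 18.5 with GSK805 and 11.1 to 14.2 with GSK805+ILA, Derl3 fell with ILA as Zbtb32 did (log2 change -2.00, limma adjusted p = 7.66e-07), and Jchain was at 0 in 3 libraries and at most 0.232 FPKM elsewhere. Tnfrsf13b, the most abundant of the 4, was at 8.75 to 12.9 FPKM and was not called in any comparison with vehicle (0.05, 0.08 and -0.09 for ILA, GSK805 and both; limma adjusted p = 0.741, 0.691 and 0.572), and Sdc1 stayed between 0.201 and 0.558 FPKM with overlapping groups. Of the 2 CD8 T cell markers, summed at 3.77 to 5.23 FPKM with vehicle, 1.09 to 1.51 with ILA, 3.76 to 4.33 with GSK805 and 1.68 to 1.8 with GSK805+ILA, Cd8b1 fell with ILA (-1.15, limma adjusted p = 8.22e-06) and Cd8a stayed at or below 0.298 FPKM. Foxp3, the factor of regulatory T cells, rose in all 3 comparisons with vehicle (log2 changes 0.27, 0.35 and 0.51 for ILA, GSK805 and both; limma adjusted p = 0.0368, 0.0267 and 0.00114) within 1.05 to 2.19 FPKM, and Ikzf2, the other marker of these cells, stayed at or below 0.265 FPKM. Of the 8 myeloid markers, summed at 4.17 to 5.22 FPKM with vehicle, 2.66 to 3.65 with ILA, 3.92 to 4.28 with GSK805 and 3.54 to 3.71 with GSK805+ILA, Csf1r was the 1 above 1 FPKM, and it fell with ILA (-0.43, limma adjusted p = 0.00333). The B cell markers summed to 1.71 to 2.97 FPKM over all libraries. The part of these shifts in the changes of the 8 genes was not tested.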

How the data were processed

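RNA-seq FPKM values were used as the authors deposited them. The submitters' processing notes name FastQC 0.11.2, Bowtie and the build mm10; neither Bowtie's version nor the counter, annotation and strand setting is known here. From the deposited FPKM, log2(FPKM + 1) was computed. A limma 3.58.1 model (R 4.3.3) with 1 mean per group, a variance trend and robust moderation was fitted to all 12 libraries and the 13511 genes with a mean of 1 FPKM or more in at least 1 group, with Benjamini-Hochberg adjustment over all of them. Prdm1 and Tox were taken from the same fit to all 29522 genes. The procedure was tested on simulated data.

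With GENCODE vM21 exon lengths, FPKM gave whole reads (within 0.1) for 98.8% to 99.0% of genes under 200 reads; these went into voom. Their number limits the precision of low genes. The 8 members, the 9 lists of 75 genes, the markers and the rule for names were chosen with earlier results of these data known. From each list up to 3 called genes with the largest change against vehicle were named, 25 in all; for each tested member the 3 genes with the highest Pearson r. Alternatives were a pseudocount of 0.1, no filter, a filter at 5 FPKM, no trend or robust moderation, quantile normalization, a block for the replicate number, a fit of the compared groups alone, and omission of each library; median centring and voom were chosen after seeing the data. Tables and plots used Python 3.11.15, pandas 2.3.3, scipy 1.17.1 and matplotlib 3.10.9. Gene positions are GRCm38. Raw reads were not used here. A marker and a motif of the fixed lists are not reported here.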

Additional observations from a re-analysis of the deposited data

Results flagged for a closer look

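For 14 of the genes named, the log2 change with ILA differed between cells with and without GSK805, by the limma interaction term over all 13511 genes. They were 13 of the 25 genes named from the lists and 1 of the 6 tested members, beside 13.8% of all genes tested. The 25 were picked for large changes against vehicle, in libraries that the interaction also uses, so their share is not comparable with that of all genes. Of all 65 tested list genes, 6 had a positive and 11 a negative called term. A negative value means a smaller rise, or a larger fall, with GSK805 present. Zbtb32 was the 1 member among them, at 0.94 (adjusted p = 0.00454).

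Differences were also positive for genes that ILA lowered: Slamf7 at 1.17 (adjusted p = 0.0021), Il21 at 0.71 (0.00328), Cd40lg at 0.59 (0.0395) and Slamf1 at 0.52 (0.00328). They were negative for genes that ILA raised. Maf was at -0.74 (adjusted p = 0.00209), Lef1 at -0.59 (0.00535), Id3 at -0.56 (0.0201) and Pik3cd at -0.49 (0.00202). Cd48 was at -0.43 (adjusted p = 0.00579), Il6ra at -0.41 (0.0214), Runx3 at -0.4 (0.034), Pik3r1 at -0.36 (0.0386) and Ncor1 at -0.28 (0.0297). Median centring ended the calls of Ncor1, Pik3r1 and Runx3, and quantile normalization those of Cd40lg, Il6ra, Pik3r1 and Runx3. In each of these 14 the ILA effect was smaller in size with GSK805 present. For the 13 list genes, naming by the largest change against vehicle favours that direction, so no conclusion is drawn from its uniformity. The interaction uses the vehicle, ILA, GSK805 and GSK805+ILA libraries at once, so it shares them with every pairwise value given for these genes.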

How the results depend on the processing

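Over the changes of the 8 genes in 6 contrasts, 677 values under another setting kept direction and side of the threshold, 18 passed newly, 13 no longer passed and 10 changed sign; each change of sign was of a difference that had not passed, and the causes were not tested. GSK805 against vehicle gave -0.02 and -0.05 for Prdm1 without vehicle replicate 1 and without GSK805 replicate 1 (-0.05 to 0.1 over all left-out libraries), -0.03 for Slamf6 with quantile normalization and with median centring, and 0.03 for Icos without GSK805 replicate 3 (-0.09 to 0.03). GSK805+ILA against vehicle gave -0.05 for Icos with median centring. The interaction gave 0.03 for Sh2d1a with quantile normalization and with median centring, 0.0008 with voom, and 0.02 for Tox with voom. For GSK805 against vehicle the members called went from 1 to 2 (Zbtb32 added) with a filter at 5 FPKM, with only the groups compared, with voom and with the replicate block, and to 3 with median centring. The interaction called 2 members with voom, and 1067 genes without a filter in place of 1871. Leaving out 1 library gave 7124 to 7405 genes for ILA, 2107 to 3009 for GSK805, 6309 to 6679 for GSK805+ILA against vehicle, 4430 to 4862 against GSK805 and 1604 to 2165 against ILA (lowest without GSK805+ILA replicate 3). For the interaction it gave 1201 to 1974, with 1232 without vehicle replicate 3, 1206 without GSK805 replicate 1 and 1201 without GSK805+ILA replicate 3, and 1 to 2 members (2, with Icos, without GSK805 replicate 1). No clear pairing by replicate number was seen: same-numbered libraries had r from -0.08 to 0.08 over 18 pairs, and 6 of 12 libraries correlated best with their own number. Such correlations of deviations from group means of 3 libraries cannot exclude shared animals or cultures. The replicate block called 5, 2, 5, 5, 2 and 1 members, in the order of the comparisons ILA, GSK805 and both against vehicle, both against GSK805, both against ILA, and interaction. A filter at 5 FPKM gives no value for Sh2d1a, Prdm1 and Tox.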
